A study of Rattus norvegicus with 6 samples.

Results

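Chemokines, interleukins and their receptors were followed in primary rat brain microvascular endothelial cells (rBMECs) exposed to homocysteine (Hcy), a sulfur amino acid formed from methionine. Members were chosen by a rule on gene symbols, set with earlier results of these data known. Every row of the deposited count table whose symbol begins with Ccl, Cxcl, Ccr, Cxcr, Ackr or Il and a number, together with Cx3cl1 and Cx3cr1, was taken. This gave 133 of 33566 genes, of which 53 were chemokines or chemokine receptors and 80 were named as interleukins, their receptors or binding proteins. The symbol rule also takes in Il4i1, an amino acid oxidase, and Il1rapl1 and Il1rapl2, which are best known as synaptic adhesion proteins.

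The cells came from SD rats 18 to 22 days old, from the cerebral cortex by the sample labels and from the forebrain by the methods of the study, with no genetic change, and were used after one passage. There were 6 libraries. Of these, 3 came from cells given 100 μM Hcy for 24 h and the other 3 from cells given sterile water as vehicle (Veh). The treatment protocol also names a 50 μM Hcy solution, so the final dose rests on the treatment label. Poly(A) RNA was sequenced and reads were counted per gene. The labels call the libraries biological replicates without saying whether they came from separate isolations, so p-values measure the spread between these libraries.

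Total counts were between 14024997 and 16764584 per library, and 3 counts, taken as the floor, corresponded to 0.178 to 0.215 CPM (counts scaled to the size of each library). Floors and limits cover counting error only. The 13 endothelial marker genes found in the table, Cdh5, Tie1, Kdr and Vwf among them, summed to between 10067 and 10480 CPM in Hcy and between 8537 and 9793 CPM in Veh. None of the 13 passed an adjusted p of 0.05, and without Veh replicate 3, described below, 3 passed as higher (Kdr, Vwf and Sox17) and 2 as lower (Tek and Slc2a1). In the fit without that library, 6.67% of all genes tested passed. The 12 microglial and macrophage markers summed to 8.48 to 9.12 CPM in Hcy and 9.02 to 11.5 CPM in Veh. Cd14 made up most of these sums, at a mean of 6.10 CPM in Hcy and 7.63 CPM in Veh. Cd68 and Tmem119 were also above the floor in all 6 libraries, whereas Ptprc, C1qb, P2ry12 and Tyrobp had 0 counts in all 6. Of the 12, 5 were tested and none passed the adjusted p. The 8 lymphocyte markers summed to at most 0.191 CPM, with Cd3d, Cd3e and Cd3g at 0. Of 8 pericyte and smooth muscle markers, summing to 96.1 to 109.7 CPM in Hcy and 127 to 172 CPM in Veh, only Acta2 passed the test, with 95.5 CPM in Hcy and 149 CPM in Veh (edgeR adjusted p = 0.0248). Acta2 made up most of that sum, while the median log2 fold change of the 8 was 0.58, and Cspg4, at 16, 9 and 9 reads in Hcy against 5, 3 and 3 in Veh, had one of 1.66 (edgeR adjusted p = 0.188). The 4 fibroblast markers, none past the adjusted p, summed to 35.7 to 57.8 CPM in Hcy and 57.5 to 83.9 CPM in Veh. Col1a1 made up most of that sum, at a mean of 48.0 CPM in Hcy and 69.0 CPM in Veh. The median log2 fold change of the 3 fibroblast markers tested was 0.12. The part of either cell type in the results below was not tested. Over the 9584 genes with a mean of at least 5 CPM, the first principal component, with 32.6% of the variance, set Veh replicate 3 apart at -24.1, the other libraries lying between -6.40 and 13.2. The second, with 31.1%, separated Hcy, at 11.1 to 13.1, from Veh, at -13.7 to -11.3. Members whose call rests on Veh replicate 3 are therefore given with and without it. In bulk RNA, fewer cells of a type and less RNA per cell cannot be told apart.

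Chemokines are small secreted or membrane-anchored proteins that guide leukocytes through G protein-coupled receptors. Atypical chemokine receptors bind the same ligands without coupling to G proteins, and several of them remove chemokine from the surroundings. Interleukins act through receptor chains that are often shared, such as the common gamma chain Il2rg, gp130 (Il6st) and the IL-1 receptor accessory protein Il1rap. Brain endothelium presents chemokines on its luminal face, where they help arrest leukocytes, and it responds to IL-1 and IL-6 type cytokines.

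All members that passed the test were higher in Hcy, by less than a doubling. Of the 133 members, 49 had 0 counts in all libraries, 31 had 1 to 9 counts in all, and 53 passed the minimum of 10 summed counts and were tested. With edgeR's quasi-likelihood test and Benjamini-Hochberg adjustment over all 14603 genes tested, 6 of the 53 members had an adjusted p of at most 0.05. They were Il33, Ackr3, Cxcr4, Cxcl10, Ccl5 and Cxcl16. Their log2 fold changes lay between 0.33 and 0.88. The share was 11.3% of the members tested, against 2.34% of all genes tested, and the background was 1.32% for genes higher in Hcy and 1.01% for genes lower. Among genes with a mean of at least 5 CPM, 6 of 28 members passed, where the background was 3.28% in either direction and 1.87% for genes higher in Hcy. At the thresholds of the study, which also ask for a log2 fold change of 1 or more either way, edgeR called 0 members, with a background of 0.486%. DESeq2 called 1, Il27ra (background 0.644%). With an unadjusted p of at most 0.05 and the same fold change, 2 members passed, Il27ra and Il17d, with a background of 2.56%. Without the fold change, 17 members had an unadjusted p of at most 0.05, 13 higher and 4 lower in Hcy, which is 32.1% against 13.4% of all genes (7.44% higher and 5.95% lower).

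Values of the groups did not overlap in 17 of the 53 members, or 32.1%, where the background was 20.1%. In 12 of these, or 22.6%, Hcy was higher (background 10.8%), and in 5, or 9.43%, it was lower (background 9.27%). Over all 53 members the signs were even, with 27 above 0 (background 46.9%) and 26 below, and the median log2 fold change was 0.02 against -0.02 for all genes tested. Over the 28 members with a mean of at least 5 CPM the median was 0.21, with 18 above 0 and 10 below, against -0.02 for all genes at that level. The calls depended on which library was left out. Without Veh replicate 3, 14 of 52 members tested passed the adjusted p, or 26.9%, where the background in the same fit was 6.67%. Without Veh replicate 1, 3 passed, or 5.77% (background 1.05%), and without each of the others 1 passed, or 1.89% to 1.92% (background 0.557% to 0.858%). Il33 passed in all 6 of these fits, and Ccl5, Cxcl10 and Cxcl16 only when Veh replicate 3 was the one left out. Members that had not passed with all 6 libraries also passed a leave-out fit in that case only. With other libraries left out, the edgeR adjusted p reached 0.365 for Ccl2, 0.644 for Il3ra and 0.683 for Cxcl12. DESeq2 passed 10 members, or 18.9% against 4.19% of all genes, the 6 together with Il27ra, Cxcl2, Ccl2 and Cx3cl1.

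**Figure D1:**
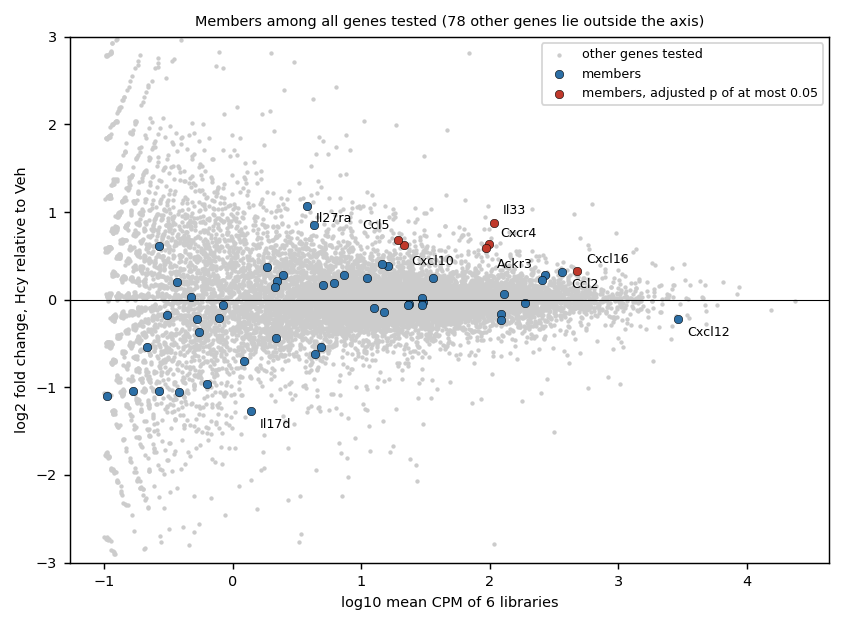
Log2 fold change of Hcy relative to Veh (vertical axis) against the log10 of the mean CPM of the 6 libraries (horizontal axis) for each gene tested. Grey points are other genes, blue points the members and red points the 6 members with an adjusted p of at most 0.05, all of which lie above 0; 78 genes, none of them a member, lie beyond the limit of 3 in either direction.

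Levels between genes are compared per length, as RPKM (CPM divided by gene length in kilobases). Cxcl12, the homeostatic chemokine of vessel walls and stroma, was the highest member at a mean of 538 RPKM over the 6 libraries. It was followed by Ccl2 at 439 RPKM, the monocyte chemoattractant, and Cxcl16 at 282 RPKM, a membrane-anchored chemokine. Cx3cl1 (fractalkine), also membrane-anchored, was at 86.3 RPKM and the common gamma chain Il2rg at 85.8 RPKM. Il6st was at 60.6, Cxcr4 at 56.3, Ackr3 at 48.2 and Il33 at 44.0 RPKM. Neighbours in the lower part of this order, such as Cxcl1 at 38.8, Il4r at 36.3 and Il1rap at 36.1 RPKM, differed by less than the spread of Il1rap between libraries, whose SD was 17.1% of its mean in Veh and 10.0% in Hcy. Some places also differed by group. In Hcy, Cxcr4 (68.6 RPKM) was above Il6st (59.7 RPKM), and in Veh, Il1rap (39.1 RPKM) was above Il33 (31.0 RPKM). The lowest member tested was Il12rb2 at 0.0328 RPKM. Of the 53, 14 had a mean below 1 CPM, among them Il6, Il34, Cxcl9 and Il2ra.

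**Figure D2:**
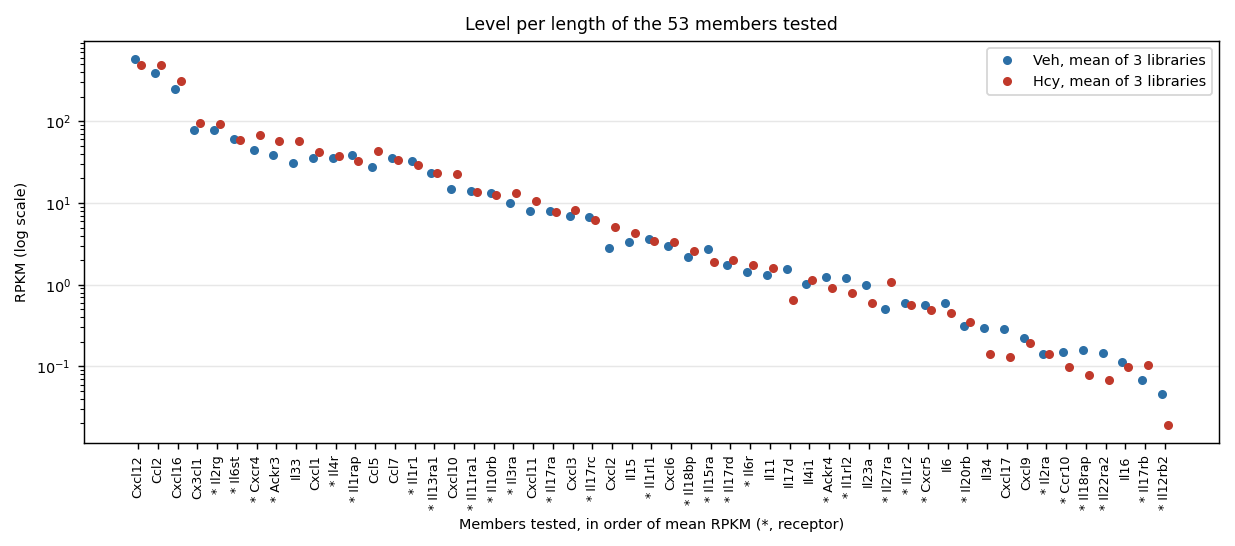
Mean RPKM in Veh (blue) and Hcy (red) on a log scale for the 53 members tested, ordered by their mean over the 6 libraries, with receptors and binding proteins starred. The order runs from Cxcl12 at 538 RPKM to Il12rb2 at 0.0328 RPKM. For most members the Hcy and Veh points lie close together compared with that whole range, though not always compared with the distance to the next gene.

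Il33 showed the clearest difference of the group. Il33 encodes an alarmin of the IL-1 family that is stored in the nucleus of endothelial and other barrier cells and signals, once released, through Il1rl1 (ST2) paired with Il1rap. It is listed on chromosome 1 from 248132090 to 248147029 on the plus strand. Its level was 132, 147 and 140 CPM in Hcy replicates 1 to 3 and 76.9, 72.1 and 78.4 CPM in Veh replicates 1 to 3. Every Hcy library lay above every Veh library by a wide margin. Hcy averaged 139 ± 7.67 CPM and Veh 75.8 ± 3.30 CPM (SD, n = 3 each). This is a log2 fold change of 0.88 (standard error, SE, 0.08; edgeR adjusted p = 0.000801), a 1.84-fold difference. Leaving out each library in turn kept the log2 fold change between 0.84 and 0.92, with adjusted p up to 0.0099 from edgeR.

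The receptor chains of Il33 did not pass the test. Il1rl1 was at 13.5, 9.54 and 13.2 CPM in Hcy and 14.2, 9.56 and 15.0 CPM in Veh. The groups overlapped, and the log2 fold change was -0.09 with a 95% interval of -0.54 to 0.36. Il1rap, which is also the partner of the IL-1 receptor Il1r1, was at 102, 124 and 111 CPM in Hcy and 149, 143 and 107 CPM in Veh. Its log2 fold change was -0.24 (edgeR adjusted p = 0.497), and -0.37 without Veh replicate 3 (edgeR adjusted p = 0.024). Il1r1 had a log2 fold change of -0.17 with an interval of -0.49 to 0.16. Il1rl2, the receptor of the IL-36 cytokines, was at 4.02, 3.56 and 2.75 CPM in Hcy and 5.40, 5.73 and 4.71 CPM in Veh. Here every Hcy library was below every Veh library, and the log2 fold change of -0.62 did not pass (SE 0.20, edgeR adjusted p = 0.2). Among the other IL-1 type members tested were Il1r2, a decoy receptor, Il18rap, a receptor chain for IL-18, and Il18bp, a soluble inhibitor of IL-18. Their log2 fold changes were -0.06, -0.96 and 0.21, none of them past an unadjusted p of 0.05. Of the 10 IL-1 family ligands, Il33 was the only one tested, and 7 had 0 counts throughout, including Il1a, Il1b, Il1rn and Il18.

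Both receptors of Cxcl12 rose in Hcy. Cxcr4, the signalling receptor that guides migrating cells and angiogenic endothelium, is listed on chromosome 13 from 45314933 to 45318878. It was at 117, 116 and 127 CPM in Hcy and 87.0, 70.5 and 73.7 CPM in Veh. The lowest Hcy library was thus above the highest Veh library, Veh replicate 1. The means were 120 ± 6.00 and 77.1 ± 8.77 CPM (SD, n = 3 each), and the log2 fold change was 0.64 (SE 0.09, edgeR adjusted p = 0.012). Ackr3, the atypical receptor that takes up Cxcl12 and Cxcl11, is listed on chromosome 9 from 97355924 to 97367445. It was at 110, 112 and 115 CPM in Hcy and 81.1, 75.6 and 66.4 CPM in Veh. Its groups did not overlap either. The means were 112 ± 2.43 and 74.4 ± 7.39 CPM (SD, n = 3 each), and the log2 fold change was 0.59 (SE 0.09, edgeR adjusted p = 0.0117).

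With each library left out, the log2 fold change ran from 0.58 to 0.74 for Cxcr4 and from 0.52 to 0.66 for Ackr3. Both lost the call in 4 of these 6 fits, with edgeR adjusted p up to 0.0807 for Cxcr4 and 0.0799 for Ackr3. The ligand itself did not pass the test. Cxcl12, on chromosome 4 from 149261044 to 149273891, was at 2723, 2731 and 2612 CPM in Hcy and 3369, 3436 and 2630 CPM in Veh. Veh replicate 3 lay at the level of the Hcy libraries while Veh replicates 1 and 2 lay above them. The log2 fold change was -0.23 (SE 0.10, edgeR adjusted p = 0.366). Without Veh replicate 3 it was -0.34 (edgeR adjusted p = 0.00175). Veh replicate 3 held 0.773 times the mean of Veh replicates 1 and 2, so the call on Cxcl12 rests on that library.

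**Figure D3:**
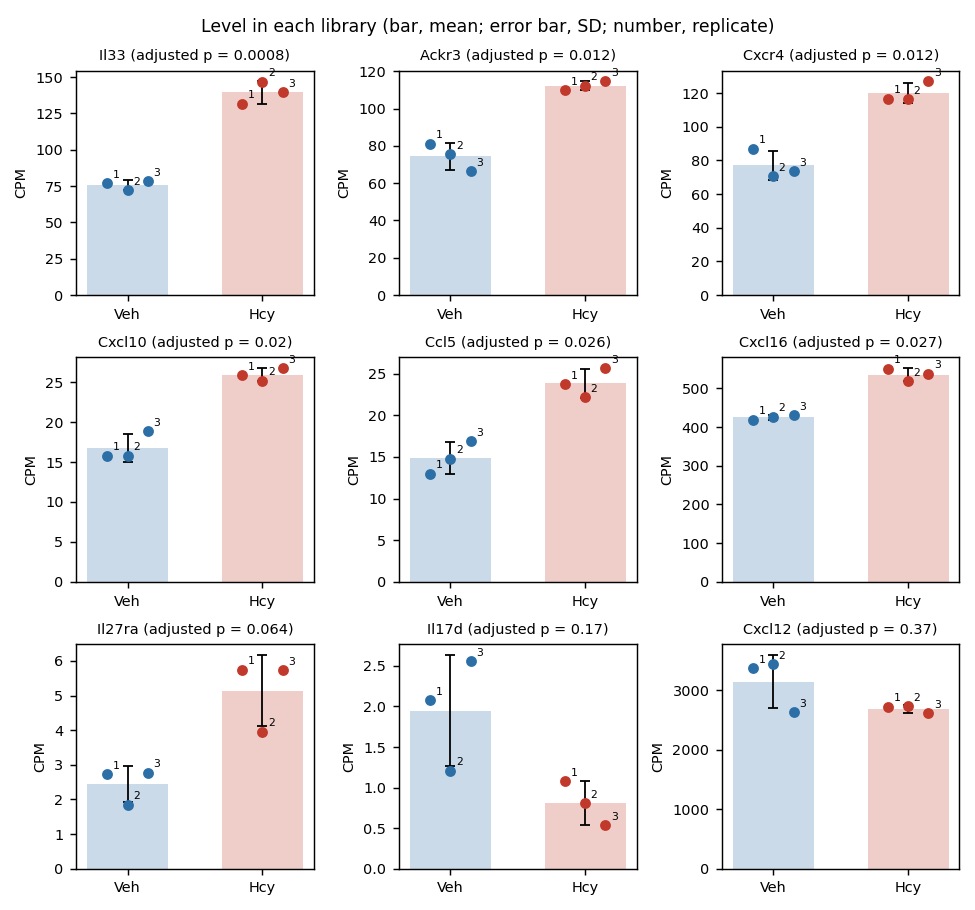
CPM of the 6 members with an adjusted p of at most 0.05 and of Il27ra, Il17d and Cxcl12 in each library, with bars for group means, error bars for SD (n = 3) and the replicate number beside each point. In the first 8 panels the Veh and Hcy points do not overlap, and for Cxcl12 Veh replicate 3 lies among the Hcy points.

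Promoter windows of members that rose together are shown so that their letters can be compared. They come from RefSeq on the GRCr8 build, while the count table names no build, and each runs from 250 bases before the annotated start to 50 bases from it on, in the direction of the gene. Of the 133 members, 103 had an entry, and of the 53 tested, 42. Of the 6 that rose, Ccl5 had none and Il33 had 2 starts. Windows were searched on both strands, overlapping matches included, for the NF-κB consensus, for an interferon-response core (GAAA, any 2 bases, GAAA) and for TATAAA. Capitals mark matches, and in Cxcr4 they cover matches on both strands that overlap.
Il33 first start, chr1:237115323-237115622, plus strand: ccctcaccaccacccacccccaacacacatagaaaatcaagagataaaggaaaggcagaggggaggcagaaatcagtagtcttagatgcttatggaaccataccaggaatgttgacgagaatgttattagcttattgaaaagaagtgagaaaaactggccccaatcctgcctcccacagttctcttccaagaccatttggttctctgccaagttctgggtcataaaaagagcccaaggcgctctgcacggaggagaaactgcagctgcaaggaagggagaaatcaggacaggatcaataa
Il33 second start, chr1:237134696-237134995, plus strand: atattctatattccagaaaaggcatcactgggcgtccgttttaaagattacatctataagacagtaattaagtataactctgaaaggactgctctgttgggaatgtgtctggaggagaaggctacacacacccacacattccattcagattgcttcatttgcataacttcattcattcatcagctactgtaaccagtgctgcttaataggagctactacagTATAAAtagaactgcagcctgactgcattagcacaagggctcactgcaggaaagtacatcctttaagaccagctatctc
Cxcr4, chr13:42634239-42634538, minus strand: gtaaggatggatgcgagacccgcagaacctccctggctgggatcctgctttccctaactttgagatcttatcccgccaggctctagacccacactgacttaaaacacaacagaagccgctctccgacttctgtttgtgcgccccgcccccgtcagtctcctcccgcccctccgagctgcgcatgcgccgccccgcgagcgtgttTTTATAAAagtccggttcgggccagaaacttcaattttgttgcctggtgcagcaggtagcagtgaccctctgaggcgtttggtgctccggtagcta
Ackr3, chr9:98247104-98247403, plus strand: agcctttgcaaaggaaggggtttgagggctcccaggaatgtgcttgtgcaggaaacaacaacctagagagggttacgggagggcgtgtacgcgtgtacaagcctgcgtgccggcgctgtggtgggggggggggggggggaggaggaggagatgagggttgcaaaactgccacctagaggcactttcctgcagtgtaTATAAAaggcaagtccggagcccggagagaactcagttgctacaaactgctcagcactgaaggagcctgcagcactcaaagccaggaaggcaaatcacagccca
Cxcl16, chr10:55669901-55670200, minus strand: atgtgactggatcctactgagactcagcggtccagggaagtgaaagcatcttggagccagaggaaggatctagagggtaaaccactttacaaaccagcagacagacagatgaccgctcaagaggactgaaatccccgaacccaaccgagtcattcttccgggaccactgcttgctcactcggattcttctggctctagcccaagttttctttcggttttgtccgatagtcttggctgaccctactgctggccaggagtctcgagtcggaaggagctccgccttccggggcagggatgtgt
Cxcl10, chr14:15988816-15989115, plus strand: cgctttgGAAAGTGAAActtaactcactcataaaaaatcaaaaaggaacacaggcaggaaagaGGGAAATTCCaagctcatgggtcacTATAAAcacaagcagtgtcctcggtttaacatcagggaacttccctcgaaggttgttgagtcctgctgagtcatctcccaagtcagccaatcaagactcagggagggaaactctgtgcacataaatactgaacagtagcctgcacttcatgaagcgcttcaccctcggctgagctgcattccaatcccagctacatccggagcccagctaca

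Of the 5 members that rose and had a window, 4 held TATAAA, at different distances, and no motif was found in all 5. Counted from the start, with -1 the base before it, TATAAA began at -29 for the second start of Il33, at -44 in Cxcr4, at -54 in Ackr3 and at -162 in Cxcl10. Cxcl16 and the first window of Il33 held no match of the 3 motifs. Cxcl10 alone among them matched the NF-κB consensus, from -187 to -178, and the interferon-response core, from -243 to -234. Across all 33469 windows, 4.18% matched the NF-κB consensus, 3.92% the interferon-response core and 14.2% TATAAA. Among the 110 windows of the members the shares were 17.3%, 10% and 21.8%. A match describes the letters in the window and is not evidence of binding.

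The membrane-anchored chemokines and Ccl2, among the most abundant members, lay higher in Hcy with no overlap of the groups, and Cxcl16 passed the test. Cxcl16, whose membrane form also takes up oxidised lipoprotein, is listed on chromosome 10 from 57060007 to 57064600. It was at 551, 518 and 537 CPM in Hcy and 419, 426 and 431 CPM in Veh. The groups were well apart and the spread within each was small. The means were 535 ± 16.6 and 425 ± 6.09 CPM (SD, n = 3 each), and the log2 fold change was 0.33 (SE 0.06, edgeR adjusted p = 0.0271). The gene overlaps Zmynd15 on the opposite strand, which had 702 counts in all against 44347 for Cxcl16, and whether counting used the strand is not given in the sources used here. Leaving out each library moved the log2 fold change of Cxcl16 only between 0.31 and 0.36, but the adjusted p then reached 0.168 from edgeR. With the replicate number as a block, Cxcl16 also lost the call. Its receptor Cxcr6 had 0 counts in all libraries.

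Cx3cl1 was at 308, 291 and 289 CPM in Hcy and 267, 242 and 222 CPM in Veh, without overlap. Its log2 fold change was 0.28 (SE 0.08), which did not pass (edgeR adjusted p = 0.144). Its receptor Cx3cr1, a marker of microglia, had 0 counts. Ccl2 was at 408, 390 and 423 CPM in Hcy and 301, 316 and 361 CPM in Veh. The groups did not overlap, Veh replicate 3 being the highest of its group, and the log2 fold change was 0.32 (SE 0.08, edgeR adjusted p = 0.0992). Without Veh replicate 3 the log2 fold change of Ccl2 was 0.40 (edgeR adjusted p = 0.00275). Ccl7, a related monocyte chemoattractant encoded next to Ccl2, was at 26.8, 28.8 and 31.0 CPM in Hcy and 28.6, 31.0 and 30.6 CPM in Veh. These groups overlapped, and the log2 fold change was -0.06 with an interval of -0.26 to 0.15.

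Ccl5 and Cxcl10 attract T cells and monocytes and both rose in Hcy. Ccl5 (RANTES), on chromosome 10 from 70739800 to 70744315, was at 23.8, 22.2 and 25.7 CPM in Hcy and 13.0, 14.8 and 16.9 CPM in Veh. Each Hcy library was above each Veh library. The means were 23.9 ± 1.75 and 14.9 ± 1.95 CPM (SD, n = 3 each), and the log2 fold change was 0.68 (SE 0.12, edgeR adjusted p = 0.0261). Cxcl10 (IP-10), an interferon-inducible chemokine on chromosome 14 from 17210733 to 17212930, was at 25.9, 25.2 and 26.7 CPM in Hcy. In Veh it was at 15.8, 15.8 and 18.8 CPM, below the range of the Hcy libraries. The means were 25.9 ± 0.777 and 16.8 ± 1.75 CPM (SD, n = 3 each), and the log2 fold change was 0.63 (SE 0.11, edgeR adjusted p = 0.0196). With libraries left out in turn, the log2 fold change ran from 0.59 to 0.78 for Ccl5 and from 0.58 to 0.71 for Cxcl10. Both lost the call in 5 of the 6 fits, with adjusted p up to 0.15 and 0.124 from edgeR.

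The neighbours of Cxcl10 on chromosome 14 bind the same receptor, Cxcr3. Cxcl11 was at 18.3, 15.0 and 16.5 CPM in Hcy and 9.38, 12.4 and 15.8 CPM in Veh. Veh replicate 3 reached into the Hcy range, and the log2 fold change of 0.41 did not pass (SE 0.18, edgeR adjusted p = 0.382). Without that library it was 0.61 (edgeR adjusted p = 0.043). Cxcl9 had 4, 5 and 4 reads in Hcy against 2, 5 and 8 in Veh, close to the floor. Cxcl10 and Cxcl11 overlap Art3 on the opposite strand, which had 9 counts in all. The receptor Cxcr3 had 8 counts over the 6 libraries, and Ccr1 and Ccr3, which bind Ccl5, had 0.

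Further along chromosome 14 lie the neutrophil chemokines Cxcl2, Cxcl1, Cxcl3 and Cxcl6, in that order, from 18731378 to 18862407 in the table. Cxcl2 was at 4.88, 5.17 and 6.39 CPM in Hcy and 2.37, 3.31 and 3.46 CPM in Veh, without overlap. Its log2 fold change of 0.85 was close to that of Il33 but less precise (SE 0.22, edgeR adjusted p = 0.097). DESeq2 passed it (adjusted p = 0.0452), and so did edgeR without Veh replicate 3, at a log2 fold change of 0.95 (edgeR adjusted p = 0.0457). Cxcl1 was at 39.4, 36.8 and 40.9 CPM in Hcy and 34.3, 32.7 and 31.5 CPM in Veh. Its groups did not overlap, and the log2 fold change was 0.25 (SE 0.08, edgeR adjusted p = 0.201). The log2 fold changes of Cxcl3 and Cxcl6 were 0.24 and 0.16, with intervals of -0.06 to 0.55 and -0.25 to 0.58. The 2 receptors for these ligands, Cxcr1 and Cxcr2, had 1 and 3 counts over all libraries. Genes of this cluster are similar in sequence, and counting may not have assigned every read to the right one.

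Of the 12 tested members whose RefSeq window matched the NF-κB consensus, 5 were chemokines of chromosome 14. Their matches are shown with 10 bases on each side, so that their letters can be compared, and that of Il27ra is shown beside them.
Cxcl1, from -84: cctgtgctccGGGAATTTCCctggcctgga
Cxcl2, from -74: cctaagctcaGGGGATTTCCctgatccctg
Cxcl6, from -88: tccaaggcccGGGAATTTCCccagcatctt
Cxcl10, from -187: gcaggaaagaGGGAAATTCCaagctcatgg
Cxcl11, from -74: gagtcaagagGGGAAATTCCtgactctctg
Il27ra, from -34: ggcggattagGGGACTTCCCaccaggggcg
Cxcl1 and Cxcl6 hold the same 10 letters, and so do Cxcl10 and Cxcl11, while their log2 fold changes were 0.25, 0.16, 0.63 and 0.41. The other tested members with a match were Il12rb2, Il1r1, Il1rap, Il4i1, Il4r and Il6. None of them had an unadjusted p of at most 0.05. Of the members shown, Cxcl6 and Cxcl11 did not reach that threshold either, while Cxcl1, Cxcl2, Cxcl10 and Il27ra did. Il27ra was the only tested member with a match outside chromosome 14 that reached it. Whether a match goes with a change was not tested. Among the other tested chemokines of chromosome 14, Cxcl3 had no window to search, and the window of Cxcl9 held no match.

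**Figure D4:**
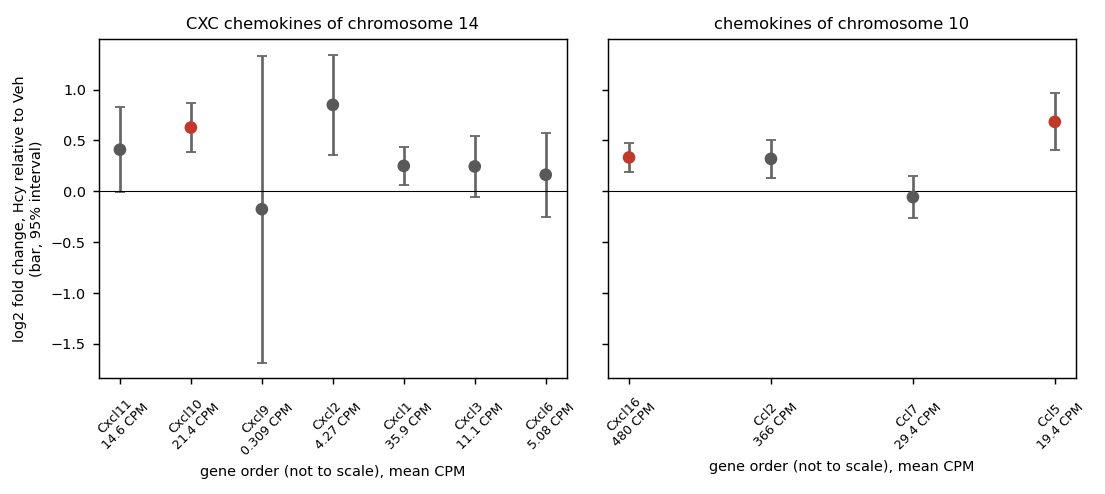
Log2 fold change of Hcy relative to Veh with its 95% interval for tested chemokines of chromosome 14 (left) and chromosome 10 (right), in gene order and not to scale, with mean CPM under each symbol. Red points passed an adjusted p of 0.05; Cxcl10 is the only red point on the left, and on the right Ccl7 lies near 0 between Ccl2 and Ccl5.

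Among tested members of the IL-6 and IL-12 families, Il27ra had the lowest p-value. Il27ra encodes the receptor chain that pairs with gp130 to bind IL-27. It was at 5.75, 3.96 and 5.73 CPM in Hcy and 2.73, 1.85 and 2.77 CPM in Veh, from 29 to 96 counts per library. The lowest Hcy library was above the highest Veh library. The log2 fold change was 1.07 (SE 0.25), and the adjusted p of 0.0643 from edgeR was just above the threshold. It passed with DESeq2 (adjusted p = 0.0129), with the replicate number as a block (edgeR adjusted p = 0.0481) and without Veh replicate 3 (edgeR adjusted p = 0.0336). It did not pass when any other library was left out. Over these leave-out fits its log2 fold change ran from 0.90 to 1.23, with adjusted p up to 0.248 from edgeR. Il27, which encodes a subunit of the ligand, had 0 counts. The other subunit, Ebi3, had 39, 48 and 72 reads in Hcy against 35, 31 and 36 in Veh, with a log2 fold change of 0.66 that did not pass (edgeR adjusted p = 0.257). Il6st was at 173, 210 and 175 CPM in Hcy and 229, 224 and 121 CPM in Veh. Veh replicate 3 stood far below the other Veh libraries, and the log2 fold change of -0.04 had a wide interval, -0.52 to 0.44. Il6r and Il11ra1, which bind IL-6 and IL-11, had log2 fold changes of 0.28 and -0.05, with adjusted p of 0.537 and 0.883 from edgeR. Their ligands were low. Il6 had 3, 8 and 11 reads in Hcy against 12, 5 and 12 in Veh, and Il11 was at 2.71 ± 0.942 CPM in Hcy and 2.24 ± 0.521 CPM in Veh (SD, n = 3 each). Il23a was at 0.928 ± 0.207 and 1.51 ± 0.405 CPM (SD, n = 3 each), lower in each Hcy library, with an adjusted p of 0.432 from edgeR.

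The receptors of the common gamma and beta chain cytokines did not pass the test with all 6 libraries. Il2rg was at 274, 265 and 276 CPM in Hcy and 239, 221 and 241 CPM in Veh. The groups did not overlap, but the log2 fold change was small at 0.22 (SE 0.07, edgeR adjusted p = 0.165). Without Veh replicate 3 it was 0.24 (edgeR adjusted p = 0.0327). Of its partners, Il2rb, Il7r and Il21r had 0 counts and Il9r had 6, whereas Il4r was at 132 ± 4.62 CPM in Hcy and 126 ± 9.42 CPM in Veh (SD, n = 3 each). Il4r and Il13ra1, which together bind IL-4 and IL-13, had log2 fold changes of 0.07 and 0.02, with intervals of -0.11 to 0.24 and -0.36 to 0.41. Il15ra, which presents IL-15, was at 4.02, 3.63 and 4.30 CPM in Hcy and 6.41, 6.5 and 4.5 CPM in Veh. It was lower in every Hcy library, narrowly so against Veh replicate 3, with a log2 fold change of -0.54 (SE 0.20, edgeR adjusted p = 0.259). Il15 had 16, 16 and 68 reads in Hcy against 24, 33 and 20 in Veh, so a single Hcy library raised its mean. Il3ra was at 18.5, 17.5 and 19.1 CPM in Hcy and 11.7, 12.7 and 17.9 CPM in Veh. Its log2 fold change was 0.38 (edgeR adjusted p = 0.345), and 0.59 without Veh replicate 3 (edgeR adjusted p = 0.0148). Il3ra overlaps Asmtl on the opposite strand, with 1444 counts in all against 1494.

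In the IL-17 family, Il17d was lower in every Hcy library, without passing the test. Il17d had 15, 12 and 9 reads in Hcy against 35, 19 and 37 in Veh, or 0.807 ± 0.270 and 1.95 ± 0.684 CPM (SD, n = 3 each). No Hcy library reached the lowest Veh library. The log2 fold change was -1.28 (SE 0.39), and it did not pass (edgeR adjusted p = 0.172). Il17ra, the shared receptor chain, had a log2 fold change of -0.02 with an interval of -0.22 to 0.17. Il17rc, its partner for IL-17A and IL-17F, had one of -0.14 with an interval of -0.43 to 0.16. Il17rd ranged from 3.18 CPM in Veh replicate 3 to 8.73 CPM in Hcy replicate 2, with a log2 fold change of 0.19. Il10rb, a chain shared by receptors of the IL-10 family, had a log2 fold change of -0.06 with an interval of -0.29 to 0.17. The adjusted p of these 4 receptors was at least 0.732 from edgeR.

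**Figure D5:**
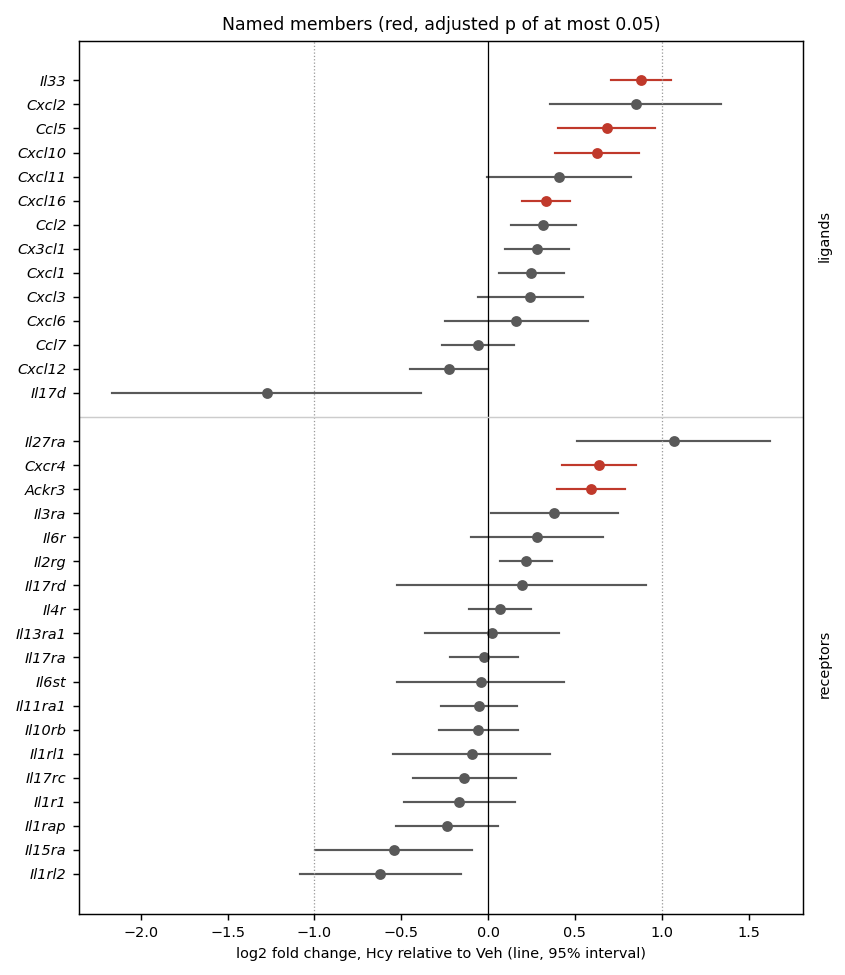
Log2 fold change of Hcy relative to Veh (points) with 95% intervals (lines) for the 33 members that had an unadjusted p of at most 0.05 or a mean of at least 5 CPM, split into ligands (top) and receptors (bottom). Red marks an adjusted p of at most 0.05, dotted lines mark 1 and -1, and only the points of Il27ra and Il17d lie beyond the dotted lines.

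The remaining members were low or at 0. Of 20 CC chemokines, Ccl2, Ccl5 and Ccl7 were tested and 10 had 0 counts, among them Ccl3, Ccl11 and Ccl17. All but 2 of the 13 CXC and CX3C chemokines were tested, the exceptions being Cxcl13 and Cxcl14. Of 17 chemokine receptors, Cxcr4, Cxcr5 and Ccr10 were tested, and of these only Cxcr4 had more than 20 counts in any library. Ackr4, the atypical receptor of Ccl19 and Ccl21, was at 1.51, 1.95 and 2.09 CPM in Hcy and 2.49, 2.55 and 2.49 CPM in Veh. It did not overlap, and its log2 fold change of -0.44 did not pass (edgeR adjusted p = 0.491). It overlaps Acad11 on the opposite strand, which had 958 counts. Of the 5 IL-10 family ligands none was tested, and of 9 ligands of the IL-2 and IL-4 type only Il15 was. A count of 0 in a library still allows up to 3 counts, or 0.178 to 0.215 CPM.

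Genes that act with the members were listed separately, and none passed the test with all 6 libraries. Of 18 tested cytokine ligands and receptors outside the symbol rule, such as Lif, Osmr and Csf1, 0 passed an adjusted p of 0.05 in edgeR, and the unadjusted p was at most 0.05 for 6, 5 of them higher, where the background was 13.4%. Of 10 tested chemokine-type genes outside the rule, 0 passed, with 2 higher, Cmtm3 and Cmtm8, and 1 lower, Mif, at the unadjusted p. Mif had 7, 3 and 6 reads in Hcy against 7, 3 and 451 in Veh, so its value rests on Veh replicate 3 alone, and without that library its log2 fold change was 0.20 (edgeR adjusted p = 0.912). Of 15 genes of feedback on cytokine signalling, 0 passed, with 1 higher and 1 lower at the unadjusted p. Adaptors of IL-1, IL-17 and Toll-like receptors (12 tested), genes that process interleukins (8) and G proteins, kinases and arrestins of chemokine receptors (10) gave 0 at either threshold. Without Veh replicate 3, where the background was 6.67%, the adjusted p was passed by 4 of 17 of the cytokine genes (Csf2rb and Sigirr higher, Csf1 and Osmr lower), by Cmtm3, which was higher, and by the feedback gene Socs4, which was lower. With all 6 libraries, medians of these lists lay between -0.14 and 0.08, against -0.02 for all genes.

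Among the 28 members with a mean of at least 5 CPM, Veh replicate 3 was the lowest Veh library in 11 and the highest in 13, that is 39.3% and 46.4%. Over all genes at that level the shares were 40.6% and 43.1%. Relative to the mean of Veh replicates 1 and 2, it ranged from 0.457 times for Il17rd and 0.531 times for Il6st to 1.45 times for Cxcl11 and 1.47 times for Il3ra. Receptors thus stood at both ends. Il33 and Cxcl16 were steady across Veh, with an SD of 4.35% and 1.43% of the mean. Some members that did not pass varied as little, such as Il11ra1 at 2.51% and Cxcl1 at 4.22%.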

How the data were processed

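RNA-seq of 6 rBMEC libraries was used. A table of unnormalised read counts for 33566 genes was deposited by the authors, with position and length, and a table of their own comparison (size-factor-scaled values, fold changes and p-values), which was not used. The submitters' processing notes name HISAT2 2.2.1, featureCounts 2.0.6 and mRatBN7.2, while positions in the deposited table reach 282724300 on chromosome 1 and the table names no build; strand use is not given in the sources used here. Gene length, another deposited column, served for RPKM.

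Genes with at least 10 summed counts (14603) were tested with R 4.3.3 and edgeR 4.0.16 (TMM, quasi-likelihood, condition only, prior count 0.125); p was Benjamini-Hochberg adjusted. Standard errors were the log2 fold change divided by the root of F. Libraries were grouped by title. Named were members with p of at most 0.05 or a mean of at least 5 CPM. Members and lists were chosen with earlier results of these data known. Alternatives were DESeq2 1.42.0, its size factors, library totals, 2 other count minimums, a replicate block, a prior count of 2 and leaving out each library; marker and pathway lists without Veh replicate 3 were added after seeing the data. Code was tested on simulated data.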

Additional observations from a re-analysis of the deposited data

How the results depend on the processing

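At the thresholds of the study, 0 members were called by edgeR, and DESeq2, no count minimum beyond 1 count and the replicate block each called 1, Il27ra. With each library left out the count ran from 0 to 1. Where 1 member was called, it made up 1.19% to 1.92% of those tested. The background was 0.486% with edgeR, 0.644% with DESeq2, 0.583% with no count minimum beyond 1 and 0.562% with the block. It was 0.271% to 0.78% with each library left out. The count with an adjusted p of at most 0.05 was 6, against 10 with DESeq2 and 1 to 14 with each library left out, 14 without Veh replicate 3, 3 without Veh replicate 1 and 1 without each other library. With the replicate block the count was also 6, or 11.3% of members against 2.04% of all genes. In that fit Il27ra passed and Cxcl16 did not (adjusted p = 0.0608 from edgeR). Deviations of same-numbered libraries correlated at -0.02, 0.16 and 0.05, and the numbers were not read as pairs. Of 429 log2 fold changes recomputed for the 33 named members, 11 changed sign, and none of these 5 genes passed the test in any fit. Leaving out each library gave -0.27 to 0.049 for Il1rl1, -0.090 to 0.43 for Il17rd, -0.063 to 0.017 for Il17ra, -0.13 to 0.14 for Il13ra1 and -0.29 to 0.11 for Il6st. The sign turned for Il1rl1, Il17rd and Il13ra1 without Hcy replicate 2 or Veh replicate 3, for Il17ra without Veh replicate 1, and for Il6st without Hcy replicate 1, Veh replicate 1 or Veh replicate 2. With the replicate block Il6st was at 0.0081. The causes were not tested. How small a change could be detected in members under 1 CPM was not tested.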
